A study of Mus musculus with 20 samples.

Results

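Major histocompatibility complex (MHC) class II genes were followed in mouse ear endothelial cells on 20 expression arrays. The members were 6 genes listed by symbol: H2-Aa and H2-Ab1, the alpha and beta chains of I-A; H2-Eb1, the beta chain of I-E; H2-DMa, the alpha chain of the peptide exchange factor H2-M; Cd74, the invariant chain; and Ciita, the class II transactivator. A gene was taken where a probe set carried that symbol alone, which gave 5 of the 6, among 14178 genes with a single-symbol probe set above the filter described below. The probe set listed for Cd74 also carried the symbol of a microRNA, Mir5107. Its values are given apart, since the array does not separate these transcripts, and Cd74 is not counted among the 5.

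The cells were sorted as CD31+CD45-Ter119- from collagenase I digests of the ear. Of the arrays, 4 came from DNFB-treated and 4 from vehicle-treated ears of NICD1-EC-OE mice, and 6 from DNFB-treated and 6 from vehicle-treated ears of control mice. NICD1-EC-OE mice express the constitutively active intracellular domain of Notch1 in endothelium after tamoxifen; their genotype is labelled Pdgfb-CreERT2; R26-NICD, whereas the growth protocol names a CDH5-iCre driver, and the driver was not settled here. The control mice are labelled only as control, so whether they carry Cre or the NICD allele is not stated. The protocol gives all mice 5 daily tamoxifen injections. DNFB (dinitrofluorobenzene), a hapten that causes contact hypersensitivity, was painted on the skin on days 0 and 1 to sensitise the mice and on the ear on day 5 to elicit inflammation. Ears were collected 24 hours later. Age and strain are not given. The labels do not say whether arrays of a group, or same-numbered arrays, came from separate mice, so p-values measure only the spread between these samples, which may be technical. The title of NICD1-EC-OE vehicle replicate 4 calls it a vehicle ear and its description a DNFB ear; the title was followed.

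MHC class II molecules present peptides from endosomes to CD4+ T cells. Professional antigen-presenting cells express them constitutively, whereas most other cells, endothelium among them, express them after interferon-gamma, which induces Ciita. Ciita binds no DNA itself. It is recruited by factors bound to conserved promoter elements: the RFX complex on the X box, CREB-type factors on the adjoining X2 box and NF-Y on a CCAAT motif. Cd74 holds new class II dimers until it is degraded in endosomes, and H2-M then helps to exchange its remnant for other peptides.

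The promoters of H2-Aa, a chain of I-A that passed the threshold between genotypes in both kinds of ear, and H2-Eb1, a chain of I-E that as deposited passed in neither, are printed with that of H2-DMb1, the beta chain of H2-M, which was chosen after its values were seen. Each covers 250 bases before to 50 bases after a RefSeq transcription start (GRCm38.p6), 5′ to 3′ on the gene's own strand, at chr17:34287774-34288073 (minus strand) for H2-Aa, chr17:34305617-34305916 (plus strand) for H2-Eb1 and chr17:34152941-34153240 (plus strand) for H2-DMb1. Capitals mark matches, on either strand, to CCAAT (read as ATTGG on the opposite strand), to TGACGTCA, the cyclic AMP response element of the X2 box type, and to AACNGATG, the 3′ part of the X box.
H2-Aa promoter: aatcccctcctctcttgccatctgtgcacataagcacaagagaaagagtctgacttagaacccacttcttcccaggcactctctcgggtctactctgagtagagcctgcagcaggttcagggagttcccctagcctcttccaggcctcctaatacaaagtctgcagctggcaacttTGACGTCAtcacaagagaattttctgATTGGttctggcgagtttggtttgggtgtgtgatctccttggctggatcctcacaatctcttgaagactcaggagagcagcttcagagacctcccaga
H2-Eb1 promoter: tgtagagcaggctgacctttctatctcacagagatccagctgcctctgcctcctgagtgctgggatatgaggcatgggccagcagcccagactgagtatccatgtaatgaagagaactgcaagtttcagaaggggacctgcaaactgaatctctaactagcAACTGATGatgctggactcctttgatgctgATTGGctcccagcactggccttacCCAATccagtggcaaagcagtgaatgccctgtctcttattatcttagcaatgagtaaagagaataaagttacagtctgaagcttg
H2-DMb1 promoter: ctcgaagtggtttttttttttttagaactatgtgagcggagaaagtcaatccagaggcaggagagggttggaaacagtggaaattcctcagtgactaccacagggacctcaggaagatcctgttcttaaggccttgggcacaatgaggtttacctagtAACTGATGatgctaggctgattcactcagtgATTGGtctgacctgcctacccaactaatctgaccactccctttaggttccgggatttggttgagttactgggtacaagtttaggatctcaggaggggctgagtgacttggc
In the H2-Aa window TGACGTCA lay 74 to 67 bases and an inverted CCAAT 48 to 44 bases before the start. The H2-Eb1 window held AACNGATG 89 to 82 bases before the start, an inverted CCAAT at 59 to 55 bases and a forward CCAAT at 35 to 31 bases. H2-DMb1 held AACNGATG at 92 to 85 bases and an inverted CCAAT at 61 to 57 bases. The motifs did not overlap within these windows. Of 32851 mouse promoters of the same length, 37.4% held CCAAT, 1.79% held TGACGTCA and 2.32% held AACNGATG. The table has 2 windows for H2-DMa, of which 1 held none of these motifs and the other a CCAAT alone. A match describes the letters of the window and is not a measured binding site. These arrays measured RNA and not binding.

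The unit is the log2 level that robust multi-array averaging (RMA) gives for a probe set, and a difference of 1 on this scale is a 2-fold change. Differences were tested with limma on all 20 arrays together, with p-values adjusted by the Benjamini-Hochberg method over 14886 probe sets and a threshold of 0.05. The 2 genotypes differed in more than the transgene. The NICD1-EC-OE arrays had Xist at 8.47 to 9.07 and the Y-linked gene Eif2s3y at 2.11 to 2.79, against Xist at 2.27 to 3.16 and Eif2s3y at 6.08 to 7.12 on the control arrays, so genotype and sex cannot be told apart. Array medians were 3.52 to 3.62 for NICD1-EC-OE and 3.87 to 3.98 for control, and over all probe sets tested the median NICD1-EC-OE minus control difference was −0.27 in DNFB ears and −0.28 in vehicle ears. Each genotype difference is therefore also given after each array was centred on its median, which turned those medians to 0.099 and 0.045. The Notch1 probe set read 9.47 to 9.87 on NICD1-EC-OE arrays and 9.52 to 10.02 on control arrays. Whether its probes detect the transgene was not checked.

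In DNFB ears the I-A chains and H2-DMa were higher in NICD1-EC-OE than in control endothelium, and Ciita did not pass the threshold. H2-Aa rose 3.55-fold, H2-Ab1 4.16-fold and H2-DMa 3.16-fold, and for each of these every NICD1-EC-OE array lay above every control array. H2-Eb1 was also higher on average but missed the threshold as deposited. Thus 3 of the 5 members rose and none fell, where 5.45% of all probe sets tested were called higher. After centring, 4 of 5 rose, H2-Eb1 among them, against 20.7% of all probe sets. The median difference of the 5 members was 1.66, or 2.03 centred. In bulk samples such as these, fewer cells of a type and less RNA per cell cannot be told apart.

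H2-Aa encodes the I-A alpha chain. It read 6.78, 7.11, 7.15 and 6.65 on NICD1-EC-OE DNFB arrays, against 4.03 to 5.64 (median 5.30) on the 6 control DNFB arrays. The lowest NICD1-EC-OE array (6.65) stood about 1 log2 unit above the highest control array (5.64), and the NICD1-EC-OE arrays lay close together. Means were 6.92 ± 0.25 (SD, n = 4) in NICD1-EC-OE and 5.09 ± 0.62 (SD, n = 6) in control ears. The difference was 1.83 ± 0.48 (SE; limma adjusted p = 0.00552), and 2.20 after centring (adjusted p = 0.00205).

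**Figure D1:**
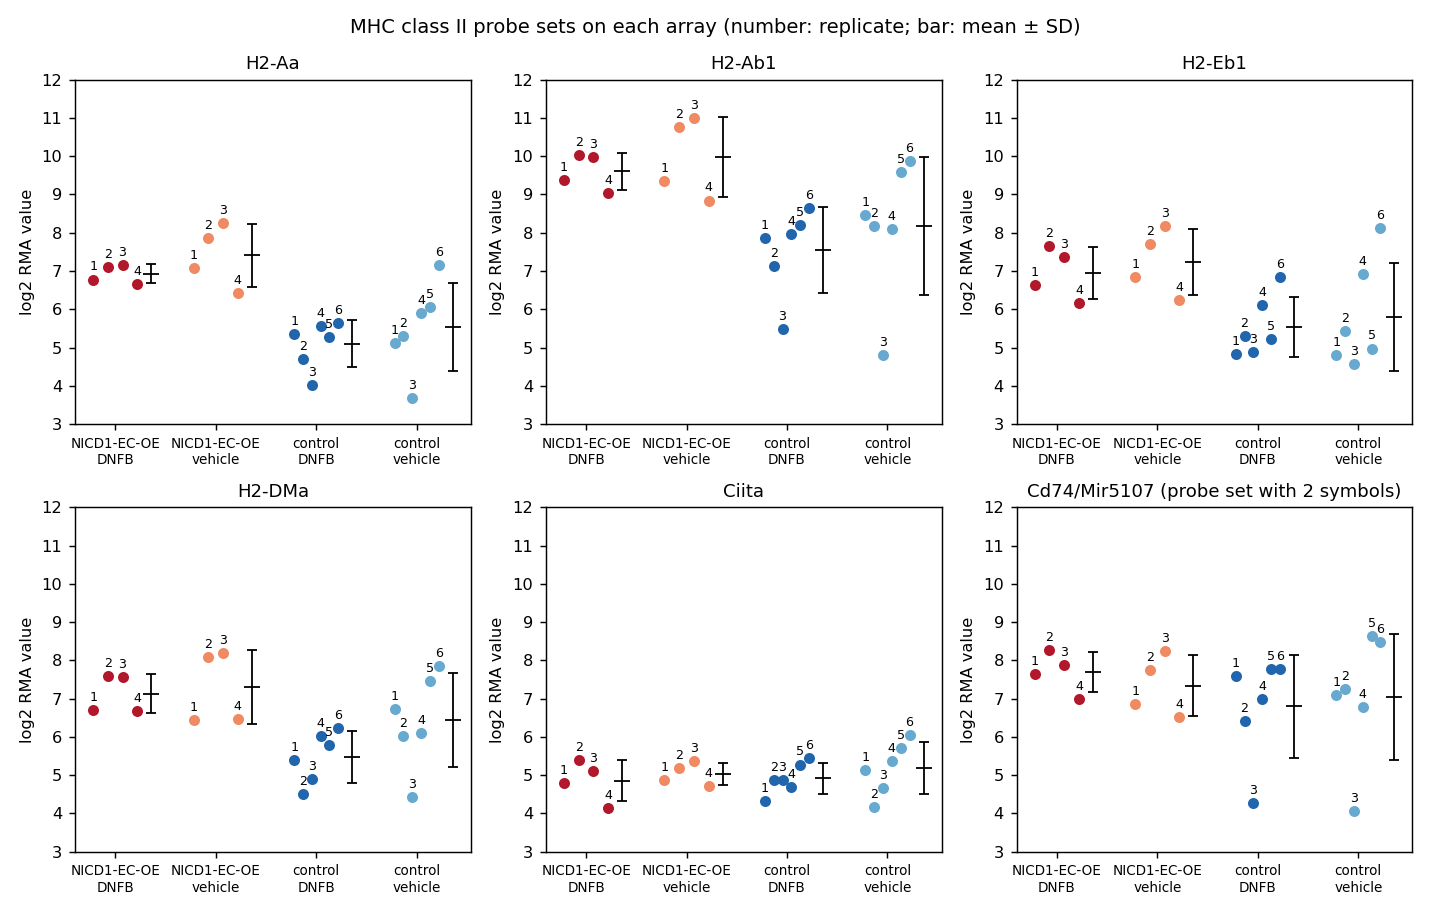
Log2 RMA value (vertical axis) of the 5 members and of the probe set listed for both Cd74 and Mir5107 on each of the 20 arrays, by group (horizontal axis); numbers are replicates and bars are mean ± SD. For H2-Aa, H2-Ab1 and H2-DMa all 4 NICD1-EC-OE DNFB points lie above the 6 control DNFB points, whereas the Ciita groups overlap and control replicate 3 is low for several members.

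H2-Ab1, the I-A beta chain that pairs with H2-Aa, had the largest mean difference of the 5 members. Its values were 9.39, 10.04, 9.97 and 9.03 on NICD1-EC-OE DNFB arrays, against 5.48 to 8.66 (median 7.92) on control DNFB arrays. The groups did not overlap, but control replicate 3 (5.48) lay well below the other 5 control arrays, which read 7.12 or more. Means were 9.61 ± 0.48 (SD, n = 4) in NICD1-EC-OE and 7.55 ± 1.13 (SD, n = 6) in control ears. The difference was 2.06 ± 0.75 (SE; limma adjusted p = 0.0351), and 2.43 after centring (adjusted p = 0.0195).

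H2-DMa, a chain of the endosomal editor H2-M, read 6.71, 7.58, 7.57 and 6.68 on NICD1-EC-OE DNFB arrays, against 4.51 to 6.23 (median 5.59) on control DNFB arrays. The lowest NICD1-EC-OE array stood above the highest control array by less than the SD of either group. Means were 7.14 ± 0.51 (SD, n = 4) in NICD1-EC-OE and 5.48 ± 0.67 (SD, n = 6) in control ears. The difference was 1.66 ± 0.53 (SE; limma adjusted p = 0.0183), and 2.03 after centring (adjusted p = 0.00723). Over all probe sets tested, 3.28% had every NICD1-EC-OE DNFB array above every control DNFB array, and 15.2% after centring.

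H2-Eb1, the I-E beta chain, read 6.63, 7.64, 7.37 and 6.15 on NICD1-EC-OE DNFB arrays, against 4.83 to 6.83 (median 5.26) on control DNFB arrays. The groups overlapped: control replicate 6 (6.83) lay above NICD1-EC-OE replicates 1 and 4. Means were 6.95 ± 0.68 (SD, n = 4) in NICD1-EC-OE and 5.53 ± 0.79 (SD, n = 6) in control ears. The difference of 1.41 ± 0.60 (SE) missed the threshold as deposited (limma adjusted p = 0.0638) and passed it after centring (1.79, adjusted p = 0.0303).

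Ciita, the transactivator, read 4.80, 5.39, 5.11 and 4.14 on NICD1-EC-OE DNFB arrays, against 4.33 to 5.44 (median 4.87) on control DNFB arrays. These ranges overlapped almost entirely. They lay not far above the array medians of 3.52 to 3.62 for NICD1-EC-OE and 3.87 to 3.98 for control. The part of this low level was not tested. The difference was −0.056 ± 0.31 (SE; limma adjusted p = 0.9), and 0.32 after centring (adjusted p = 0.473), so its sign depended on the scaling.

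The probe set listed for Cd74 and Mir5107 read 7.65, 8.27, 7.88 and 7.003 on NICD1-EC-OE DNFB arrays, against 4.29 to 7.78 (median 7.29) on control DNFB arrays. The groups overlapped, and control replicate 3 was again the low array. Its difference was 0.90 ± 0.76 (SE; limma adjusted p = 0.384 over all probe sets above the filter), and 1.27 after centring (adjusted p = 0.248).

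These calls rested on few arrays. H2-Aa stayed past the threshold in all 10 fits that each left out 1 array of the 2 groups. H2-Ab1 lost its call in 5 of those 10, which left out control DNFB replicate 2 or 3 or NICD1-EC-OE DNFB replicate 1, 2 or 3 (highest adjusted p 0.0852), and H2-DMa in 2, which left out NICD1-EC-OE DNFB replicate 2 or 3 (highest adjusted p 0.0567). An earlier account of these data added a fit without control replicates 1, 2, 3 and 5 after seeing them. In it none of the 5 members passed: H2-Aa was at 1.32 (limma adjusted p = 0.0515), H2-Ab1 at 1.30 (0.141) and H2-DMa at 1.00 (0.222). Only control replicates 4 and 6 remained, the control DNFB arrays with the highest mean of the members (6.08 and 6.56). Keeping them lowers the difference by itself, so this fit cannot test the calls.

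In vehicle ears, where no hapten was put on the ear, H2-Aa alone among the members was past the threshold, 3.66-fold higher in NICD1-EC-OE than in control endothelium. It was 1 of 5 members, where 2.88% of all probe sets tested were called higher. After centring H2-Aa and H2-Eb1 both rose, against 11.9% of all probe sets. For no member did the 4 NICD1-EC-OE vehicle arrays all lie above the 6 control vehicle arrays, a separation that 1.83% of all probe sets showed.

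H2-Aa read 7.07, 7.87, 8.27 and 6.42 on NICD1-EC-OE vehicle arrays, against 3.68 to 7.15 (median 5.60) on control vehicle arrays. Control replicate 6 (7.15) lay above NICD1-EC-OE replicates 1 and 4. Means were 7.41 ± 0.82 (SD, n = 4) in NICD1-EC-OE and 5.54 ± 1.16 (SD, n = 6) in control ears, with a difference of 1.87 ± 0.48 (SE; limma adjusted p = 0.00558), or 2.20 after centring (adjusted p = 0.00366). It passed in all 10 fits that left out 1 array of these groups. It did not pass with control replicates 1, 2, 3 and 5 left out (0.88, limma adjusted p = 0.166), which kept only control replicates 4 and 6.

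H2-Ab1 read 9.36, 10.76, 10.99 and 8.84 on NICD1-EC-OE vehicle arrays, against 4.81 to 9.87 (median 8.32) on control vehicle arrays. This was the widest control group of any member. The difference of 1.82 ± 0.75 (SE; limma adjusted p = 0.0638) missed the threshold, also after centring (2.15, adjusted p = 0.0504).

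H2-Eb1 read 6.84, 7.71, 8.17 and 6.24 on NICD1-EC-OE vehicle arrays, against 4.58 to 8.13 (median 5.20) on control vehicle arrays. Control replicate 6 reached the level of the highest NICD1-EC-OE arrays. The difference was 1.44 ± 0.60 (SE; limma adjusted p = 0.0655), and 1.76 after centring, which passed (adjusted p = 0.0450). With control replicates 1, 2, 3 and 5 left out it turned to −0.28 (limma adjusted p = 0.731). That fit kept only control replicates 4 and 6, the highest control vehicle arrays for H2-Eb1 (6.92 and 8.13), so the turn follows from that choice.

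H2-DMa read 6.45, 8.08, 8.19 and 6.47 on NICD1-EC-OE vehicle arrays, against 4.43 to 7.86 (median 6.42) on control vehicle arrays. The groups overlapped over most of their range, with a difference of 0.86 ± 0.53 (SE; limma adjusted p = 0.212; centred 1.19, adjusted p = 0.127). Ciita read 4.87, 5.19, 5.37 and 4.73 on NICD1-EC-OE vehicle arrays, against 4.18 to 6.05 (median 5.26) on control vehicle arrays. Its difference was −0.14 ± 0.31 (SE; limma adjusted p = 0.736), and 0.18 after centring. The probe set listed for Cd74 and Mir5107 differed by 0.30 ± 0.76 (SE; limma adjusted p = 0.806; centred 0.62).

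**Figure D2:**
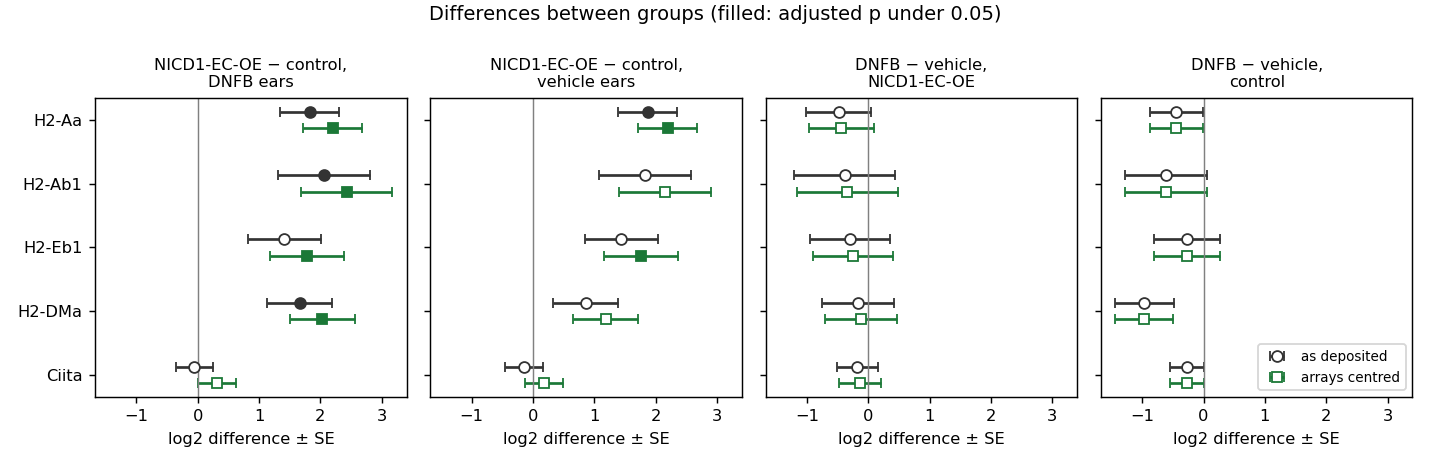
Log2 differences ± SE (horizontal axis) of the 5 members (vertical axis) in the 4 comparisons, as deposited (circles) and with arrays centred on their median (squares); filled symbols have a limma adjusted p under 0.05. H2-Aa is filled in both genotype panels, and no symbol is filled in the DNFB panels.

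With all 20 arrays fitted without a replicate block, no member passed the threshold with DNFB in either genotype, in cells where a large share of the array responded. In NICD1-EC-OE endothelium 0 of 5 members were called by limma, where 38.1% of all probe sets tested were, and no member had an unadjusted p under 0.05. In control endothelium 0 of 5 were called, where 47.2% of all probe sets were, and the lowest unadjusted p was 0.0567 (H2-DMa). The estimates of the 5 members were all below 0. Their median was −0.29 in NICD1-EC-OE and −0.44 in control endothelium, beside medians over all probe sets near 0. The probe set listed for Cd74 and Mir5107 differed by 0.36 ± 0.83 (SE; limma adjusted p = 0.812) in NICD1-EC-OE endothelium. In control endothelium it differed by −0.24 ± 0.68 (limma adjusted p = 0.827). Of 13 pan-endothelial markers tested, 11 fell and 0 rose with DNFB in control endothelium (median −0.63), and 7 fell and 1 rose in NICD1-EC-OE endothelium (median −0.32). Their mean level was 9.68 to 9.94 on NICD1-EC-OE DNFB and 10.2 to 10.3 on NICD1-EC-OE vehicle arrays, and 9.46 to 9.88 on control DNFB and 10.3 to 10.5 on control vehicle arrays. Their part in the members' values was not tested. Since the genotype and DNFB comparisons share arrays, these values are not independent of those above.

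In NICD1-EC-OE endothelium the DNFB minus vehicle difference was −0.48 ± 0.53 (SE) for H2-Aa, −0.38 ± 0.82 for H2-Ab1 and −0.29 ± 0.65 for H2-Eb1, with limma adjusted p-values of 0.516, 0.761 and 0.770. H2-DMa (−0.16 ± 0.58) and Ciita (−0.18 ± 0.33) lay nearer to 0. The standard errors were as large as these differences or larger.

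In control endothelium H2-DMa gave the estimate farthest from 0: its 6 DNFB arrays read 4.51 to 6.23 (median 5.59), against 4.43 to 7.86 (median 6.42) on the 6 vehicle arrays, a difference of −0.96 ± 0.48 (SE; limma adjusted p = 0.104). The value moved when vehicle replicate 3, the lowest vehicle array, was left out. Without that array H2-DMa differed by −1.37 (adjusted p = 0.0104) and H2-Ab1 by −1.29 (adjusted p = 0.0463), so that 2 of 5 members passed. Without both control arrays numbered 3, H2-DMa alone passed (−1.25, adjusted p = 0.0241). As deposited, the other control differences were −0.62 ± 0.67 for H2-Ab1, −0.44 ± 0.43 for H2-Aa, −0.27 ± 0.53 for H2-Eb1 and −0.27 ± 0.27 for Ciita.

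The difference between the DNFB effects of the 2 genotypes was tested directly as an interaction, and 0 of 5 members passed in limma, with no unadjusted p under 0.05 (lowest 0.30, H2-DMa). For all probe sets the share was 0.0134%. The H2-DMa interaction was 0.80 ± 0.75 (SE; limma adjusted p = 0.748), and those of the other members lay between −0.042 and 0.23. Their standard errors were 0.43 to 1.06, so differences of that size were not resolved.

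The members mostly varied between arrays of the same group more than most genes. The SD of H2-Ab1 among the control vehicle arrays was 1.80, when the median over all probe sets was 0.238, and only 12 of 14886 probe sets had a larger one. H2-Eb1 (SD 1.41), H2-DMa (1.23) and H2-Aa (1.16) were exceeded in that group by 27, 53 and 60 probe sets. Pooled over the 4 groups, the residual SD was 1.29 for H2-Ab1, 1.02 for H2-Eb1, 0.91 for H2-DMa, 0.82 for H2-Aa and 0.52 for Ciita, with a median of 0.260 over all probe sets. Nearer to the median of all probe sets were H2-Aa on NICD1-EC-OE DNFB arrays (SD 0.25, median 0.205), Ciita on NICD1-EC-OE vehicle arrays (SD 0.29, median 0.218) and Ciita on control DNFB arrays (SD 0.40, median 0.262).

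**Figure D3:**
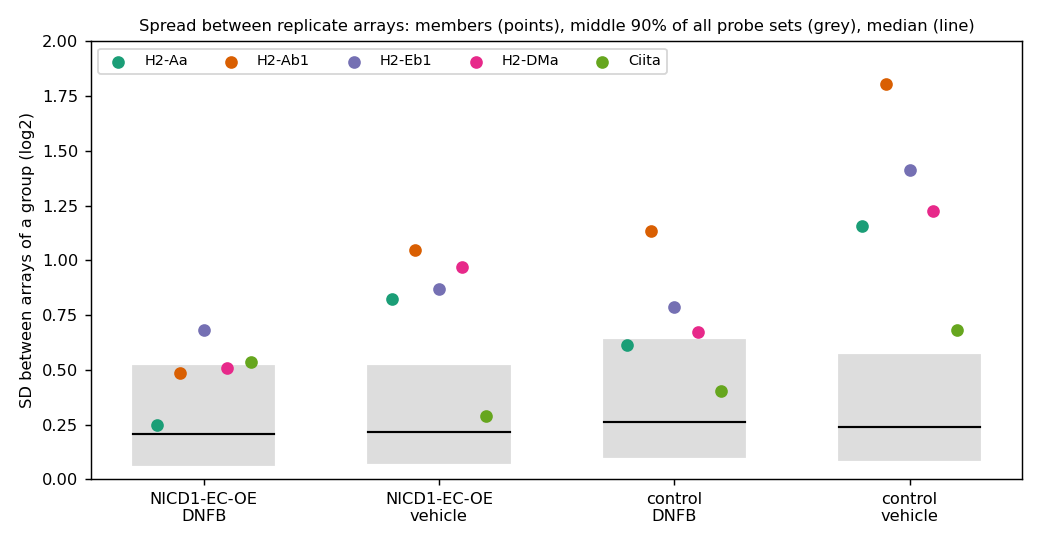
SD between replicate arrays in log2 units (vertical axis) for the 5 members in each group (horizontal axis), with the median (line) and the middle range, from the 5th to the 95th percentile (grey), of all 14886 probe sets. In the control vehicle group all 5 members lie above the grey band, H2-Ab1 highest at 1.80.

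The same arrays were high or low for several members. Replicate 3 was the lowest control vehicle array for H2-Aa (3.68), H2-Ab1 (4.81), H2-Eb1 (4.58) and H2-DMa (4.43), and the lowest control DNFB array for H2-Aa (4.03) and H2-Ab1 (5.48). Replicate 6 was the highest control vehicle array for all 5 members, H2-Ab1 at 9.87 among them, and the highest control DNFB array for all 5 as well. Among NICD1-EC-OE arrays replicate 4 was the lowest for H2-Aa, H2-Ab1, H2-Eb1 and Ciita in both DNFB and vehicle ears. Whether same-numbered arrays share a mouse is not stated.

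Taken as deviations from the group means over the 20 arrays, H2-Aa correlated with H2-Ab1 (r = 0.93) and H2-DMa (r = 0.89), and H2-Ab1 with H2-DMa (r = 0.92). H2-Eb1 followed H2-Aa at r = 0.79 but H2-Ab1 and H2-DMa only at 0.61 and 0.64. These coefficients are descriptions across arrays that share their groups and amplification, and carry no test.

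H2-Eb1 departed from H2-Ab1 on control arrays. Control vehicle replicates 4 and 6 read 6.92 and 8.13 for H2-Eb1, and control DNFB replicates 4 and 6 read 6.12 and 6.83. All other control arrays lay between 4.58 and 5.43, including vehicle replicate 5, which was at 4.97 for H2-Eb1 although it was the second highest of its group for H2-Ab1 at 9.59. When each gene was taken relative to its own mean over the 20 arrays, H2-Eb1 minus H2-Ab1 ran from −0.65 to −0.0046 on the 8 NICD1-EC-OE arrays and from −2.22 to 2.17 on the 12 control arrays. The highest values, 2.17 and 1.81, came from the vehicle and DNFB arrays of control replicate 3, which were low for H2-Ab1. The lowest, −2.22, came from control vehicle replicate 5. Apart from replicates 4 and 6, H2-Eb1 lay not far above the control array medians of 3.87 to 3.98. The 2 genes thus moved nearly in step on NICD1-EC-OE arrays and less so on control arrays. The part of the low level and of single arrays was not tested.

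Ciita, which passed in no comparison, varied together with the genes it activates from array to array. On deviations from group means over 20 arrays, its Pearson r was 0.62 with H2-Aa, 0.58 with H2-Ab1, 0.66 with H2-Eb1 and 0.68 with H2-DMa. The Spearman rho for these 4 was 0.60, 0.73, 0.62 and 0.71. All 4 relations were tested by two-sided permutation (100000 resamples). Benjamini-Hochberg adjusted p-values over the 4 were 0.0032 to 0.0067 for r and 0.0015 to 0.0061 for rho. The permutation treated the 20 arrays as independent, although same-numbered arrays may share a mouse and the spread differed between groups. These p-values may therefore be too small. Testing the members singly was chosen after seeing the data. Without the 2 arrays farthest from the Ciita median, r was 0.57 to 0.67. With the mean of the other 4 members r was 0.80 on the 8 NICD1-EC-OE arrays and 0.65 on the 12 control arrays, given without a p. Arrays of both treatments enter each of these values.

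**Figure D4:**
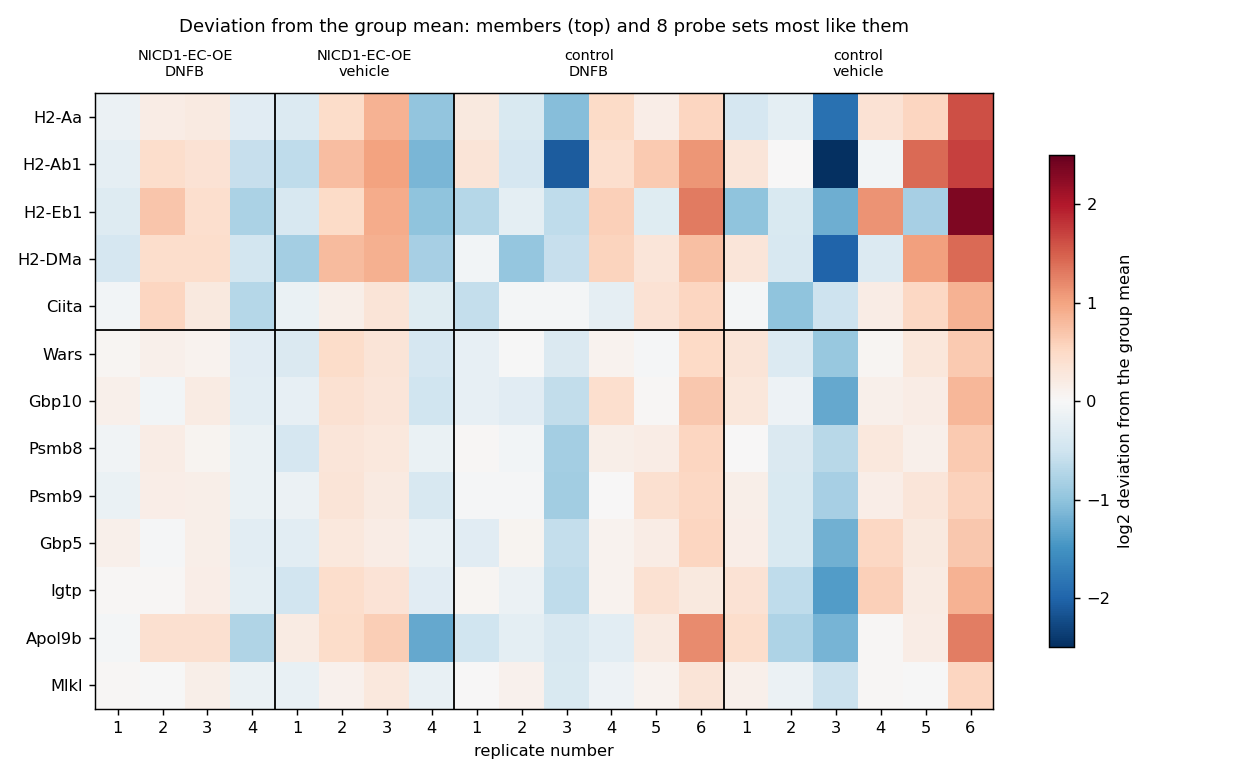
Deviation from the group mean in log2 units (colour) on each array (columns, by group and replicate number) for the 5 members (top rows) and the 8 probe sets most like them. The control vehicle columns run from the low replicate 3 to the high replicate 6 in nearly all rows shown.

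Genes with the most similar pattern were ranked by Pearson r over the 20 arrays with the mean of the members' standardised values. On deviations from the group means, the highest were Wars, a tryptophan tRNA ligase (r = 0.92), Gbp10, a guanylate-binding protein (0.91), the proteasome subunits Psmb8 and Psmb9 (both 0.90), Gbp5 (0.88), the GTPase Igtp (0.88), Apol9b (0.88) and Mlkl, a pseudokinase of necroptosis (0.88). On levels, which include the group differences, they were Apol9b (0.89), Gbp7 (0.89), Gbp10 (0.88), Irf7 (0.84), Xdh (0.84), Gbp5 (0.83), H2-DMb1 (0.82) and Shfl (0.82). Wars averaged 11.6 in NICD1-EC-OE DNFB, 10.7 in NICD1-EC-OE vehicle, 10.7 in control DNFB and 10.4 in control vehicle ears. It rose with DNFB in NICD1-EC-OE endothelium (0.93 ± 0.27, limma adjusted p = 0.0109). Mlkl rose with DNFB in both genotypes, by 1.85 ± 0.18 (SE; adjusted p = 1.24e-07) in NICD1-EC-OE and 1.35 ± 0.15 (adjusted p = 2.42e-07) in control endothelium.

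Most other class II chains read low. Of 6 listed, 4 did not pass the filter: the H2-O chains H2-Oa and H2-Ob, H2-Eb2, and the I-E alpha chain H2-Ea, which some laboratory strains do not express. H2-Ea read 2.45 to 2.70 on NICD1-EC-OE DNFB arrays and 2.42 to 2.58 on NICD1-EC-OE vehicle arrays, against 2.42 to 3.41 on control DNFB arrays and 2.27 to 3.56 on control vehicle arrays, below each array's median throughout. H2-DMb1, the partner of H2-DMa, read 3.24 to 4.17 on NICD1-EC-OE DNFB arrays, against 2.65 to 3.90 on control DNFB arrays. Its difference of 0.56 ± 0.28 (SE) did not pass as deposited (limma adjusted p = 0.109) and passed after centring (0.93, adjusted p = 0.0167). H2-DMb2 read 2.58 to 5.14 on NICD1-EC-OE vehicle arrays and 2.45 to 4.46 on control DNFB arrays, and did not pass in any comparison.

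Enzymes that process antigen and the invariant chain responded to DNFB in NICD1-EC-OE endothelium: 4 of 7 rose and 1 fell (median difference 0.27). Of all 14886 probe sets, 2974 rose and 2691 fell there, 38.1% in either direction (median 0.0067). Cathepsin S (Ctss), which cleaves the invariant chain in professional antigen-presenting cells, rose by 2.06 ± 0.52 (SE; limma adjusted p = 0.00374). The thiol reductase Ifi30 rose by 0.79 and the endopeptidase Lgmn by 0.38, and cathepsin L (Ctsl) fell by 0.64. In control endothelium 0 of 7 rose and 1 fell (median −0.12), where 47.2% of all probe sets changed (median −0.0012). The member that fell was Sppl2a, a protease of the invariant chain remnant (−0.40 ± 0.16, limma adjusted p = 0.0389). Ctss read 5.00 to 5.20 on NICD1-EC-OE vehicle arrays and 4.78 to 7.13 on control vehicle arrays, a much wider range. The limma interaction passed for none of the 7 after adjustment and for 2 at an unadjusted p under 0.05 (Lgmn and Ctsl), so a different response by genotype was not shown. By genotype, Lgmn was higher in NICD1-EC-OE DNFB ears (0.63 ± 0.10, adjusted p = 0.000166; centred 1.00), whereas the fall of Ctsl there (−0.67, adjusted p = 0.000249) did not hold after centring (−0.30, adjusted p = 0.061).

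Of 9 tested factors that act with Ciita on class II promoters, 0 rose and 4 fell with DNFB in NICD1-EC-OE endothelium (median −0.20). Of all 14886 probe sets, 2974 rose and 2691 fell there, 38.1% in either direction. Counts over 9 genes were not tested against these. The 4 that fell were the acetyltransferase Kat2b (−0.57), the RFX subunit Rfxank (−0.51), Creb1 (−0.51) and the coactivator Crebbp (−0.39). After centring Rfxank no longer passed (−0.46, adjusted p = 0.0513). In control endothelium 4 of 9 fell (median −0.20), Kat2b (−0.93), Creb1 (−0.77) and Rfxank (−0.61) among them, and 2 rose, the NF-Y subunits Nfyb (0.64) and Nfyc, where 47.2% of all probe sets changed. By genotype in DNFB ears 1 of 9 rose and 5 fell (median −0.28), Rfx5 (−0.55) and Rfxap (−0.52) among them, but after centring 0 fell and 2 rose (median 0.088). In the same comparison 35.1% of all probe sets fell as deposited and 8.12% after centring. In vehicle ears Rfxap (−0.75) and Rfx5 (−0.52) fell, and neither passed after centring; 33.0% of all probe sets fell there as deposited and 6.54% after centring.

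Of 8 tested genes upstream of Ciita in the interferon-gamma pathway, Socs1, a feedback inhibitor of JAK kinases, and Jak2 rose with DNFB in both genotypes. Socs1 rose by 1.31 ± 0.14 (SE; limma adjusted p = 4.54e-07) in NICD1-EC-OE and 0.82 ± 0.12 (adjusted p = 7.1e-06) in control endothelium, and Jak2 by 0.54 in each. Irf1 rose in NICD1-EC-OE endothelium (0.42). The receptor chain Ifngr1 fell in both, by 0.47 and 0.64. In total 3 rose and 1 fell in NICD1-EC-OE (median 0.13), and 2 rose and 2 fell in control endothelium (median −0.0076). These shares lay near those of all probe sets that changed, 38.1% in NICD1-EC-OE and 47.2% in control endothelium. Between genotypes in DNFB ears, Jak2 was lower (−0.70; centred −0.33, adjusted p = 0.0165) and the receptor chain Ifngr2 higher (0.46; centred 0.84) in NICD1-EC-OE. In vehicle ears 0 rose and 5 fell (median −0.51), and after centring 1 rose, Ifngr2 (0.56), and 2 fell, Jak2 (−0.37) and Jak1 (−0.26). Of all probe sets there, 33.0% fell as deposited, and 11.9% rose and 6.54% fell after centring. Ifng itself, the ligand, did not pass the filter.

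Of 5 tested genes listed under costimulation, 2 rose and 1 fell with DNFB in each genotype (median 0.63 in NICD1-EC-OE and 0.50 in control). The list includes Cd274, which encodes PD-L1, an inhibitory ligand for T cells. Both medians were the difference of Cd274, which passed in neither genotype. Cd40 rose by 1.10 in NICD1-EC-OE and 0.95 in control endothelium, Icosl fell by 0.75 and 0.91, Cd86 rose by 1.19 in NICD1-EC-OE, and Cd80 rose by 1.01 in control endothelium. Of 3 tested genes of class II surface turnover, Cd63 (0.84 and 0.96) and the clathrin adaptor subunit Ap2m1 (0.49 and 0.34) rose with DNFB in NICD1-EC-OE and control endothelium. Of all probe sets, 38.1% changed with DNFB in NICD1-EC-OE and 47.2% in control endothelium, and counts over 5 and 3 genes cannot be set apart from these.

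Other cells that express class II were followed by their markers, which bear on a sort that excludes CD45. Of 7 tested pan-leukocyte markers, 6 rose with DNFB in NICD1-EC-OE and 7 in control endothelium, where 2974 and 3525 of all 14886 probe sets rose. Between genotypes limma called none of the 7 in DNFB or vehicle ears, also after centring. At an unadjusted p under 0.05, as deposited, 0 did so in DNFB ears and 1 in vehicle ears (Itgb2, lower in NICD1-EC-OE). Their mean level was 4.61 to 5.21 on NICD1-EC-OE DNFB and 3.62 to 3.79 on NICD1-EC-OE vehicle arrays, against 4.57 to 5.65 on control DNFB and 3.77 to 4.15 on control vehicle arrays. Pan-leukocyte markers rose with DNFB, where no class II member was called, but they are not particular to cells that express class II. Of 7 tested neutrophil markers, 6 rose with DNFB in NICD1-EC-OE and 7 in control endothelium (medians 1.93 and 2.12). Of 11 macrophage and monocyte markers, 3 and 5 rose, and 0 and 1 fell (medians 0.40 and 0.41). Of 8 dendritic and Langerhans cell markers, 1 rose and 1 fell in each genotype (medians 0.068 and 0.072). Within each group, the array with the lowest mean of the pan-leukocyte markers was also the lowest for H2-Ab1. It was replicate 3 for control and replicate 4 for NICD1-EC-OE, in both DNFB and vehicle ears. The highest array was the same only among NICD1-EC-OE DNFB arrays (replicate 2). Within their groups, the control replicate 3 arrays were also lowest for fibroblast markers (7.51 in DNFB and 6.59 in vehicle ears). They were highest for pan-endothelial markers (9.88 and 10.5). The NICD1-EC-OE replicate 4 arrays were neither. The part of leukocytes in the members' values was not tested. Ptprc, which encodes CD45, read 2.94 to 3.54 on NICD1-EC-OE vehicle arrays and 3.47 to 4.08 on control vehicle arrays.

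Of the dendritic and Langerhans cell markers, 0 of 8 tested were higher in NICD1-EC-OE, 2 were lower in DNFB and 4 in vehicle ears (0 and 2 after centring), and Itgax, Xcr1 and Ccl17 did not pass the filter. Of all probe sets, 35.1% were lower in DNFB and 33.0% in vehicle ears as deposited, and 8.12% and 6.54% after centring. The DNFB counts of these markers lay below these shares and the vehicle counts above them. Counts over 8 markers were not tested against these shares. Their mean level was 3.97 to 4.29 on NICD1-EC-OE DNFB and 3.86 to 4.08 on NICD1-EC-OE vehicle arrays, against 4.43 to 4.81 on control DNFB and 4.24 to 4.66 on control vehicle arrays. Of 11 tested macrophage and monocyte markers, 1 was higher and 3 lower in NICD1-EC-OE DNFB ears, and 0 were higher and 2 lower in vehicle ears, with Adgre1 and C1qc below the filter. After centring 1 was higher in DNFB and 2 in vehicle ears, where 20.7% and 11.9% of all probe sets were, and 0 were lower. Their mean level was 4.82 to 5.27 on NICD1-EC-OE DNFB and 4.43 to 4.57 on NICD1-EC-OE vehicle arrays, against 4.88 to 5.74 on control DNFB and 4.58 to 5.07 on control vehicle arrays. For B cells 5 of 6 markers did not pass the filter, Ms4a1, Cd79b and Cd22 among them lying below the median of every array.

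Lymphatic endothelial markers, by contrast, moved with the genotype. Of 6 tested, 4 were higher in NICD1-EC-OE in DNFB ears and 5 in vehicle ears, and 4 and 6 after centring. Of all probe sets 5.45% were higher in DNFB and 2.88% in vehicle ears, and 20.7% and 11.9% after centring. Their mean level was 8.39 to 9.25 on NICD1-EC-OE DNFB and 8.18 to 9.48 on NICD1-EC-OE vehicle arrays, against 7.73 to 8.24 on control DNFB and 7.10 to 7.92 on control vehicle arrays, with no overlap between genotypes in either treatment. Within groups the order differed. The array highest for H2-Ab1 was the lowest for lymphatic markers among NICD1-EC-OE vehicle (replicate 3, 8.18) and NICD1-EC-OE DNFB arrays (replicate 2, 8.39). This held among control DNFB arrays too (replicate 6, 7.73), but not among control vehicle arrays. The part of lymphatic endothelium in the genotype differences of the members was not tested. Pan-endothelial markers, which check the labelled cell type, were all 13 above the filter, with a mean of 9.46 to 10.5 over all arrays. Between genotypes 3 were higher in NICD1-EC-OE and 0 lower in DNFB ears, and 0 higher and 1 lower in vehicle ears. After centring 10 were higher in DNFB and 4 in vehicle ears, against the same shares of all probe sets as above, and 0 were lower. Their part in the genotype differences was not tested either.

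**Figure D5:**
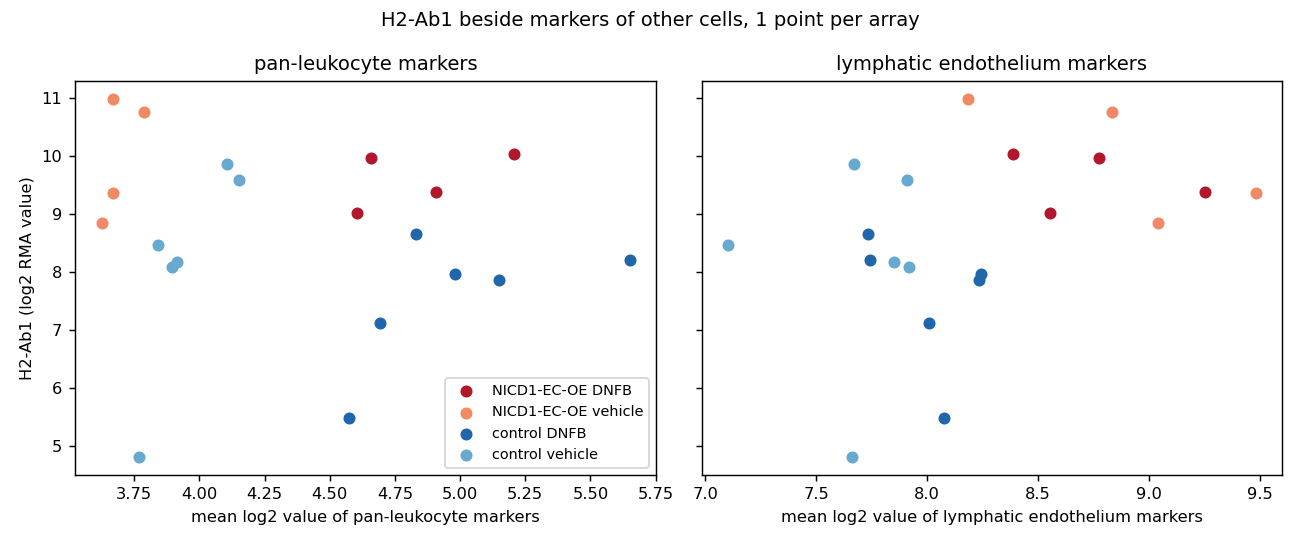
Log2 value of H2-Ab1 (vertical axis) against the mean log2 value of pan-leukocyte markers (left) and lymphatic endothelial markers (right), with 1 point per array. Leukocyte markers separate DNFB from vehicle arrays at similar H2-Ab1 values, and lymphatic markers separate NICD1-EC-OE from control arrays within each treatment.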

How the data were processed

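The deposited values are log2 RMA values per probe set, which the authors made with Affymetrix Expression Console, per the submitters' processing notes; versions, options and whether both genotypes were normalised together are not given in the sources used here. Per the labels, 1 ng of RNA per sample was amplified. The lowest value was 1.18 to 1.30 on NICD1-EC-OE arrays and 0.412 to 0.590 on control arrays. Arrays carry no read depth; their number limits the precision.

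Of 41345 probe sets, 23521 carried 1 gene symbol, 1814 several and 16010 none. A probe set was tested if it had 1 symbol and lay above the median of at least 4 arrays (14886 probe sets, 14178 genes). All 5 members passed, each with 1 probe set. Groups were taken from the sample titles. The 4 group means were estimated together from the 20 arrays in limma 3.58.1 (R 4.3.3), with Benjamini-Hochberg adjustment over the probe sets tested and a threshold of 0.05; the procedure was tested on simulated data. Permutation tests and figures used Python 3.11.15 (scipy 1.17.1, matplotlib 3.10.9).

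The members, pathway lists, marker lists and the rule for naming genes were chosen with earlier results of these data known. Named were the members, up to 4 genes per pathway list and comparison past the threshold with the largest difference, a few leukocyte markers, and the 8 genes most like the members on each measure, leaving out predicted and small RNA genes; Nfyc, H2-DMb1, H2-DMb2, H2-Ea and other genes named for not passing fall outside it. Some genes of these lists are not reported here. Alternatives were other filters, normalisations, variance models, array weights, replicate blocks, a 2-fold limit, only the groups compared, and arrays left out. Leaving out both control arrays numbered 3, and correlating Ciita with each member singly instead of with their mean, were chosen after seeing the data.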

Additional observations from a re-analysis of the deposited data

Results flagged for a closer look

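H2-Ab1 on control vehicle replicate 3 stood far from the other arrays of its group. It read 4.81, when the other 5 control vehicle arrays read 8.09 to 9.87. By Dixon's test at the 95% level this was the only array to stand apart among 24 groups of member values, the probe set listed for Cd74 and Mir5107 included, and chance flags about 1 group in 20. On the same array that probe set read 4.06, H2-Aa 3.68, H2-DMa 4.43 and Ciita 4.66. The mean of the pan-leukocyte markers there was 3.77, the lowest of the control vehicle arrays, and that of the lymphatic markers 7.66. It was also the lowest of these arrays for keratinocyte (7.43), fibroblast (6.59), dendritic and Langerhans (4.24), and T, NK and innate lymphoid markers (3.47). For macrophage and monocyte, neutrophil, B cell, and pericyte and smooth muscle markers it was not the lowest. For pan-endothelial markers it was the highest (10.5). Their part in the low value was not tested.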

How the results depend on the processing

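The number of members past the threshold in DNFB ears was 3 of 5 as reported, 4 with median centring, cyclic loess, only the groups compared or the number block (H2-Eb1 added), and 0 with control replicates 1, 2, 3 and 5 left out; with single arrays left out it ran from 1 (without NICD1-EC-OE DNFB replicate 2 or 3) to 4. In vehicle ears it was 1 as reported, 2 with median centring, 0 with those control arrays left out and 1 to 3 with single arrays left out (more than 1 without control vehicle replicate 4, 5 or 6 or NICD1-EC-OE vehicle replicate 4). H2-Ab1 in DNFB ears also missed the threshold with trended and robust variances (adjusted p = 0.0565). For DNFB in control endothelium the count was 0 as reported, 1 without both control arrays numbered 3, and 0 to 2 with single arrays left out, above 0 only without control vehicle replicate 3. For DNFB in NICD1-EC-OE endothelium and for the interaction it stayed at 0 in every alternative run. The fit without control replicates 1, 2, 3 and 5 kept only control replicates 4 and 6, high arrays for most members, so it cannot test the genotype calls.

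Arrays with the same number within a genotype deviated together only weakly (r = 0.052 to 0.227 for NICD1-EC-OE and 0.042 to 0.269 for control), and 7 of 10 correlated best with their own number, a hint from the data and not from the design. With the replicate number as a block, 3 members passed between genotypes in vehicle ears. Numbers 5 and 6 occur only for control, so the level of those arrays does not enter the genotype difference in that fit. In vehicle ears they had the highest control means of the members (6.76 and 7.81). Setting them aside raises the difference by itself, so this block cannot test the genotype calls. With genotype and number as a block, 1 member passed for DNFB in control endothelium (H2-DMa, limma adjusted p = 0.0113).

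Some differences changed sign. Ciita between genotypes in DNFB ears became 0.35 with quantile normalisation, 0.32 with centring, 0.35 with cyclic loess, 0.012 with array weights and 0.23 with the number block, and in vehicle ears 0.18, 0.18 and 0.23 with these normalisations and 0.14 with the block. The H2-Aa interaction became 0.0033 with centring, 0.074 with array weights, 0.43 without control replicates 1, 2, 3 and 5 and 0.12 without both control arrays numbered 3; the H2-Eb1 interaction became 0.022, 0.22, 0.75 and 0.093. H2-Eb1 between genotypes in vehicle ears, 1.44 as reported and past the threshold with centring and with the number block, became −0.28 without control replicates 1, 2, 3 and 5. With single arrays left out, the interaction ran from −0.37 to 0.33 for H2-Aa, −0.18 to 0.90 for H2-Ab1, −0.49 to 0.29 for H2-Eb1 and −0.087 to 0.33 for Ciita; Ciita ran from −0.23 to 0.18 between genotypes in DNFB ears, −0.35 to 0.028 in vehicle ears and −0.36 to 0.058 for DNFB in NICD1-EC-OE; DNFB in NICD1-EC-OE ran from −0.45 to 0.14 for H2-DMa and −0.63 to 0.017 for H2-Eb1; and DNFB in control ran from −0.53 to 0.20 for H2-Eb1. The causes were not tested.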
